A study of Mus musculus with 4 samples.

Results

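The genes described here are Rora and Rorb, which encode the retinoic acid receptor-related orphan receptors RORα and RORβ, and Nr1d1 and Nr1d2, which encode REV-ERBα and REV-ERBβ. These 4 nuclear receptor genes were defined by their family and not by a threshold on measured values, from the 50600 genes in the count files. They were measured by RNA sequencing of mouse T-helper 17 (Th17) cells, the class of CD4 T cell that secretes interleukin 17. The study holds 1 group of 4 libraries, the biological replicates 1 to 4, made from primary cells of the C57BL/6NJ strain with no genotype, treatment or time contrast. The labels give no sex or age, and each library has its own biosample while all share 1 donor label. Names in the count files bear the word sorted and a mark of 72 hr, and nothing in the labels tells separate animals or cultures apart. The p-values below therefore refer only to these 4 libraries, and the differences between them may be technical in part.

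ROR proteins bind DNA as monomers at a half-site, AGGTCA, preceded by a stretch rich in A and T, and they activate transcription with the help of coactivators. REV-ERB proteins bind the same elements but lack the last helix of the ligand-binding domain, and instead recruit the corepressor NCoR with the histone deacetylase HDAC3 to repress transcription. In the circadian clock these opposing factors act on Arntl, which encodes the activator BMAL1, and on Nfil3. In mouse Th17 cells RORα takes part in the differentiation programme, and REV-ERBα is known to act on Nfil3 and on the interleukin 17 genes. Sterols are ligands of ROR proteins and heme is the ligand of REV-ERB proteins.

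The shared element is recognised by the P-box of the first zinc finger, and the 30 coding bases around it are shown because they are what the 4 receptors have most plainly in common. They were read from the GENCODE mouse release 21 transcripts, run 5′ to 3′, and start at coding base 268 in Rora, 112 in Rorb, 448 in Nr1d1 and 358 in Nr1d2. Capitals mark bases that differ from Rora.
Rora: tgtgaaggctgcaagggctttttcaggaga
Rorb: tgtgaaggctgcaagggAttCttcaggagG
Nr1d1: tgtgaGggctgcaagggctttttTCgCCgG
Nr1d2: tgtgaaggctgTaagggTttCttTCggagG
Rorb differed from Rora at 3 of the 30 bases, and Nr1d1 and Nr1d2 at 6 each, and all 4 stretches encode the same residues. The stretches were located by searching each translated sequence for the residues CxGCxGFFxR, where x is any residue. Most of the shared residues were thus set by the search, and only those at x could differ. Over the whole aligned coding sequences Rora and Rorb were identical at 67.8% of 1391 bases, and Nr1d1 and Nr1d2 at 62.7% of 1687 bases. The pairs that join an ROR to a REV-ERB gene lay between 57.4% and 59.1%. Despite this kinship, only 2 of the 13054 stretches of 31 bases in the Rora transcripts also occurred in another of these receptors, so reads of the 4 genes could be told apart.

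AGGTCA was then searched in the RefSeq promoter windows, which run from 250 bases before to 50 after each gene start in the GRCm38.p6 build. On either strand the 6 letters occurred in 16.3% of 32851 windows, and the longer TAGGTCA, which contains it, in 2.61%. Among the receptors themselves, Nr1d2 alone had a match, 77 bases before its start on the gene strand, while the windows of Rora, Rorb and Nr1d1 had none. The Nr1d2 window is shown whole, since it is the only one of the 4 with the letters that these receptors read, with the match in capitals. It lies at chr14:18239057-18239356 on the minus strand.
Nr1d2: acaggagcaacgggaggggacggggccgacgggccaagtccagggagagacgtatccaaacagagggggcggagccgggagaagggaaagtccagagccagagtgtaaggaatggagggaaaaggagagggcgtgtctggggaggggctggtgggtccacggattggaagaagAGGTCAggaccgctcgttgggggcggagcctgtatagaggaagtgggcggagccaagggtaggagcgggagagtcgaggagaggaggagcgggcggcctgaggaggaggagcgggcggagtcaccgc
Of 7 genes known as Th17 targets of ROR proteins, 5 had a match in their window, whereas 18.1% of the 27025 genes in the promoter table did. The 5 are shown with Arntl and Nfil3, each as 30 bases along the gene strand, with the half-site in capitals in whichever orientation it has. Il17a lies at chr1:20730773-20730802 (plus strand), Il17f at chr1:20784311-20784340 (minus), Il23r at chr6:67491904-67491933 (minus), Ccr6 at chr17:8235987-8236016 (plus) and Ccl20 at chr1:83116580-83116609 (plus). Arntl lies at chr7:113207530-113207559 (plus) and Nfil3 at chr13:52981034-52981063 (minus).
Il17a: gtggttctgtgcTGACCTcatttgaggatg
Il17f: cagtcagtaaggAGGTCAgtggaaacaggg
Il23r: aaatgaaaatgtAGGTCAgggctctgctga
Ccr6: cagtgaaatcatTGACCTagttacataagt
Ccl20: ccaccccccaccTGACCTtcacaccttctc
Arntl: aaggcagaaagtAGGTCAgggacggaggtg
Nfil3: ggcgctcggaacTGACCTactaacacacat
In Arntl the match begins 32 bases after the gene start, and in Nfil3 it lies 12 bases before it on the opposite strand, both with the leading T. Il23r has a further match 229 bases before its start. A direct repeat of AGGTCA spaced by any 2 bases, an arrangement to which REV-ERB dimers bind, occurred in 3 windows of the whole table. No window of the genes considered here had it, and some of these genes have no window in that table. The letters describe the windows searched and are not evidence of binding.

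Rora was by far the most abundant of the 4 receptor transcripts, Nr1d2 and Nr1d1 were present at lower levels, and Rorb was not detected. In TPM (counts per base of exon, scaled to a fixed total in each library), 3 of the 4 genes reached at least 1 TPM in every library, as did 47.6% of 21764 protein-coding genes. Bulk libraries cannot tell fewer expressing cells from less RNA per cell. Among protein-coding genes ranked by mean TPM, Rora stood at 4468, Nr1d2 at 8215 and Nr1d1 at 8754. Measured only against the 10367 protein-coding genes that reached 1 TPM in every library, whose median was 32 TPM, Rora was above 56.9% of them, Nr1d2 above 20.8% and Nr1d1 above 15.6%.

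Rora (ENSMUSG00000032238.17) spans chromosome 9 from 68653786 to 69388246 on the plus strand of mm10 and has 13071 exonic bases. It held 5663, 3721, 1273 and 5278 counts in replicates 1 to 4. These gave levels of 41.3, 39.3, 34.2 and 46.1 TPM, with a mean of 40.2 ± 4.93 TPM (SD, n = 4). Replicate 4 was highest and replicate 3 lowest, 1.35-fold apart, and their counting intervals (95%, exact Poisson) did not overlap, at 44.8 to 47.3 TPM in replicate 4 and 32.3 to 36.1 TPM in replicate 3. GENCODE release 21 lists 2 protein-coding Rora transcripts, of 10878 bases and of 2591 bases, the shorter of which starts inside the gene at 69289682. Gene counts do not separate them, and the level per base of the shorter one alone would be 203 TPM.

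Rorb (ENSMUSG00000036192.15) lies on chromosome 19 from 18930605 to 19111196 on the minus strand, with 11076 exonic bases. This receptor, best known from retina and brain, held 0 counts in all 4 libraries. With 0 counts seen, up to 3 per library remain possible, and this floor equals 0.0258, 0.0374, 0.095 and 0.0309 TPM in replicates 1 to 4. Such floors, like the intervals, cover only counting error. Against these floors of 3 counts per library Rora was at least 360-fold higher than Rorb in every library, Nr1d2 at least 106-fold and Nr1d1 at least 91.2-fold. Depth thus placed an upper limit on Rorb that was loosest in replicate 3, the library with the fewest counts.

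Nr1d2 (ENSMUSG00000021775.10) lies on chromosome 14 from 18204054 to 18239127 on the minus strand, with 5001 exonic bases. It held 509, 331, 144 and 425 counts, or 9.7, 9.14, 10.1 and 9.7 TPM in replicates 1 to 4, with a mean of 9.66 ± 0.397 TPM (SD, n = 4). The 4 values were within 1.11-fold of each other and their counting intervals overlapped. A processed pseudogene on chromosome 19 shares 9.51% of the 31-base stretches of Nr1d2. The deposited counts leave out reads that map to several places, so the Nr1d2 level can be too low by the reads of that stretch.

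Nr1d1 (ENSMUSG00000020889.11) lies on chromosome 11 from 98767932 to 98775333 on the minus strand, with 3077 exonic bases. It held 228, 139, 76 and 151 counts, or 7.06, 6.24, 8.67 and 5.6 TPM in replicates 1 to 4, with a mean of 6.89 ± 1.33 TPM (SD, n = 4). Here replicate 3 was highest and replicate 4 lowest, 1.55-fold apart, the reverse of the order of Rora. The counting intervals of these 2 libraries did not overlap, at 6.83 to 10.8 TPM in replicate 3 and 4.74 to 6.57 TPM in replicate 4. Its 3′ end overlaps that of Thra, a thyroid hormone receptor gene on the opposite strand, over 263 exonic bases (98768157 to 98768419), which are 8.55% of the exonic length of Nr1d1. Counting used the strand, and Thra itself had 7.73, 7.75, 7.53 and 9.72 TPM, highest in replicate 4, where Nr1d1 was lowest.

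**Figure D1:**
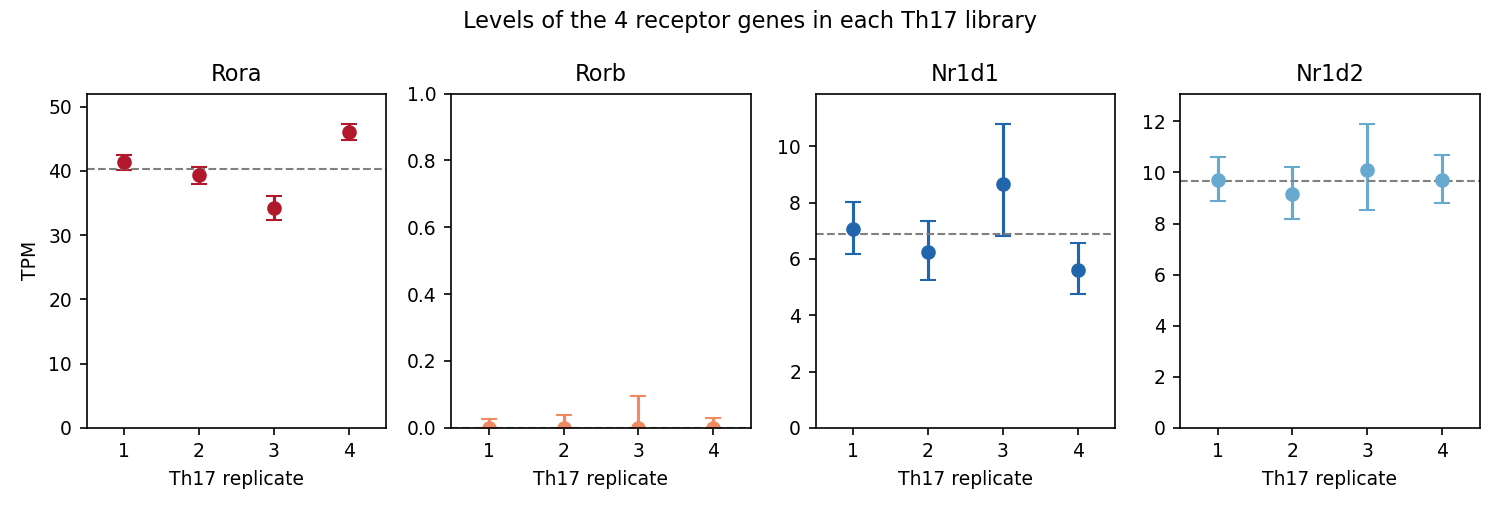
TPM of Rora, Rorb, Nr1d1 and Nr1d2 in each of the 4 Th17 libraries, with 95% exact Poisson intervals of the counts (bars; for Rorb, up to the floor of 3 counts) and the mean (dashed line), on a scale of its own for each gene. Rora lies between 34.2 and 46.1 TPM, Nr1d2 between 9.14 and 10.1 TPM and Nr1d1 between 5.6 and 8.67 TPM, and Rorb has 0 counts in every library.

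The 4 receptors kept 1 order in each library, Rora above Nr1d2 above Nr1d1 above Rorb. Rora exceeded Nr1d1 5.85-fold, 6.3-fold, 3.94-fold and 8.23-fold in TPM in replicates 1 to 4, a difference of 2.39 ± 0.40 on the log2(TPM + 1) scale (SD, n = 4). It exceeded Nr1d2 4.26-fold, 4.3-fold, 3.38-fold and 4.75-fold, a log2 difference of 1.94 ± 0.20. Between the REV-ERB genes, Nr1d2 stood at 1.37, 1.47, 1.17 and 1.73 times Nr1d1 in TPM, a log2 difference of 0.45 ± 0.21. Each of the 6 pairs of genes had the same sign in 4 of 4 libraries, and an exact permutation test that flips signs by library, two-sided, returned p = 0.13 for every pair, also once adjusted over the 6 pairs (Benjamini-Hochberg). With 4 libraries no smaller p can arise, so 0.05 was out of reach. The size of the differences rests on the length each gene is divided by. In CPM (counts scaled to the library total, with no length) the log2 difference was 1.09 for Nr1d2 over Nr1d1, 4.44 for Rora over Nr1d1 and 3.35 for Rora over Nr1d2. With the length of the shortest protein-coding transcript, chosen after seeing the data, they were 2.93, 4.54 and 1.61.

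The REV-ERB genes summed to 16.8, 15.4, 18.8 and 15.3 TPM in replicates 1 to 4. Rora alone was 2.46, 2.56, 1.82 and 3.01 times that sum. Its excess was thus lowest in replicate 3 and highest in replicate 4, the libraries in which Rora and Nr1d1 took their opposite extremes. Those 2 libraries also had Xist, the RNA that coats the inactive X chromosome, at 2.15 and 0.598 TPM, against 177 and 193 TPM in replicates 1 and 2, although the labels give all 4 libraries 1 donor. Whether the difference in Xist has a part in the levels of Rora and Nr1d1 was not tested.

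Among 47 nuclear receptor genes examined, these 4 included, 21 reached 1 TPM in each library, beside 47.6% of 21764 protein-coding genes, and 19 had 0 counts throughout. Rora ranked 7th by mean TPM, between Nr4a2 at 41.6 ± 14.1 TPM, an early gene of T-cell receptor signalling, and the vitamin D receptor gene Vdr at 37.7 TPM. Neither neighbour was separated from Rora beyond its spread: the log2 difference was -0.01 ± 0.31 for Nr4a2 over Rora and 0.08 ± 0.24 for Rora over Vdr (SD, n = 4), and the ranges overlapped. At the top of the order stood Nr4a1 at 289 ± 71.9 TPM, followed by the oxysterol receptor gene Nr1h2 at 71.3 ± 8.49 TPM and the retinoid X receptor genes Rxrb and Rxra at 62.9 and 47.7 TPM. These ranks rest on the exonic length each gene is divided by, 13071 bases for Rora. In counts over all libraries Rora held 15935, against 22173 for Nr4a1, 7180 for Nr1h2, 6817 for Rxrb and 7557 for Rxra. With the length of its shorter protein-coding transcript, Rora would stand at 203 TPM.

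Nr1d2 ranked 16th and Nr1d1 19th of the 47. Nr2f6, just above Nr1d2, exceeded it by 0.11 ± 0.05 log2 units in 4 of 4 libraries, although their ranges of TPM overlapped. Between the REV-ERB genes stood the retinoic acid receptor gene Rarg at 8.25 ± 1.52 TPM and Thra at 8.18 ± 1.03 TPM, where the log2 difference was 0.22 ± 0.29 for Nr1d2 over Rarg and 0.23 ± 0.37 for Thra over Nr1d1, neither beyond its spread. Below Nr1d1 came Pparg, a fatty acid receptor gene, at 2.49 ± 0.918 TPM, and Nr1d1 exceeded it by 1.21 ± 0.66 log2 units with no overlap of ranges. Rorb was among the 19 receptor genes with 0 counts.

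**Figure D2:**
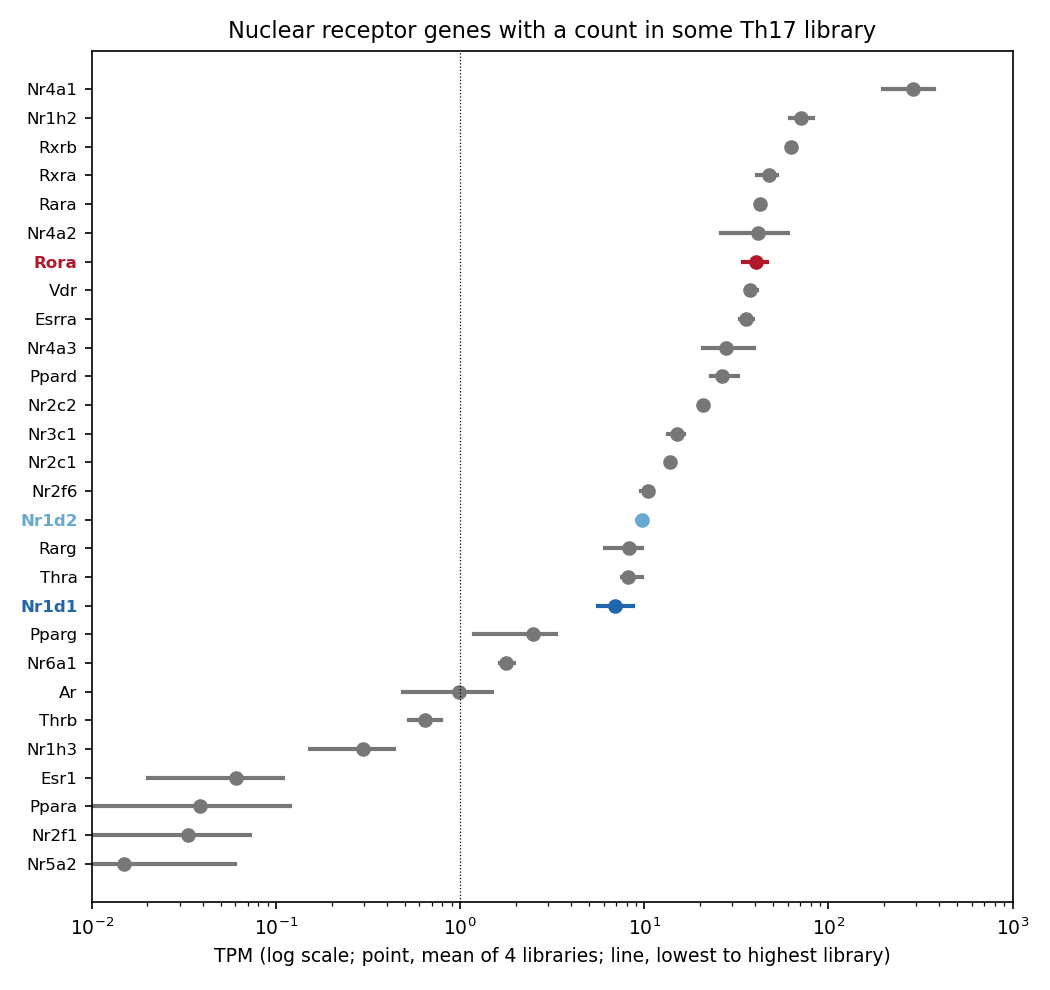
Mean TPM (points) of the nuclear receptor genes with a count in some Th17 library, on a log axis, with lines from the lowest to the highest library and 1 TPM dotted. Rora ranks 7th, Nr1d2 16th and Nr1d1 19th of 47 genes, and the range of Rora overlaps those of its neighbours Nr4a2 and Vdr. The ranks rest on the exonic length each gene is divided by.

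The spread of each receptor between the libraries was tested against the trend for genes of like abundance. Rorb did not pass the low-count filter, so 3 of the 4 genes entered this test. None of the 3 was called at an adjusted p of 0.05 (edgeR quasi-dispersion test over 12156 genes), and 0.00823% of all genes tested were called, which is Xist alone. At an unadjusted p under 0.05, 0 of the 3 and 596 of all genes passed, and DESeq2 marked none of the 3 as a dispersion outlier. The count of called genes rested on replicate 4 and on the filter: it was 20 without that replicate and 126 with no filter, and none of the 3 receptors was among them.

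Rora had a quasi-dispersion 5.03 times the trend, rank 716 of the genes tested, with an adjusted p of 0.991 in the edgeR quasi-dispersion test. With no filter the ratio was 4.31, with an adjusted p of 0.669 in the same edgeR test. Nr1d1 stood at 1.87 times the trend with an adjusted p of 0.991, and Nr1d2 at 0.194 times with an adjusted p of 0.996, both from the same test. These tests did not separate any of the receptors from genes of like abundance.

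The counts were also set against counting error alone. The variance of the counts over that of Poisson counting (chi-square per degree of freedom) was 34.3 for Rora, 4.01 for Nr1d1 and 0.444 for Nr1d2. The adjusted p of this chi-square test was 6.68e-21, 0.017 and 0.773 in the same order, and 50.8% of the 12156 genes passed it at 0.05. Passing it, as Rora and Nr1d1 did and Nr1d2 did not, was thus as common as not among genes, and passing alone sets no receptor apart. The median ratio over all genes tested was 3.18, near that of Nr1d1 and well below that of Rora. For a given spread between libraries this ratio grows with the number of counts, and Rora held the most counts of the receptors. The coefficient of variation of normalised CPM was 11.5% for Rora, 20% for Nr1d1 and 4.52% for Nr1d2, beside a median of 7.91% over all genes tested. Of the genes tested, 84.4% had a lower coefficient than Nr1d1, 66.9% a lower one than Rora and 22.8% a lower one than Nr1d2.

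**Figure D3:**
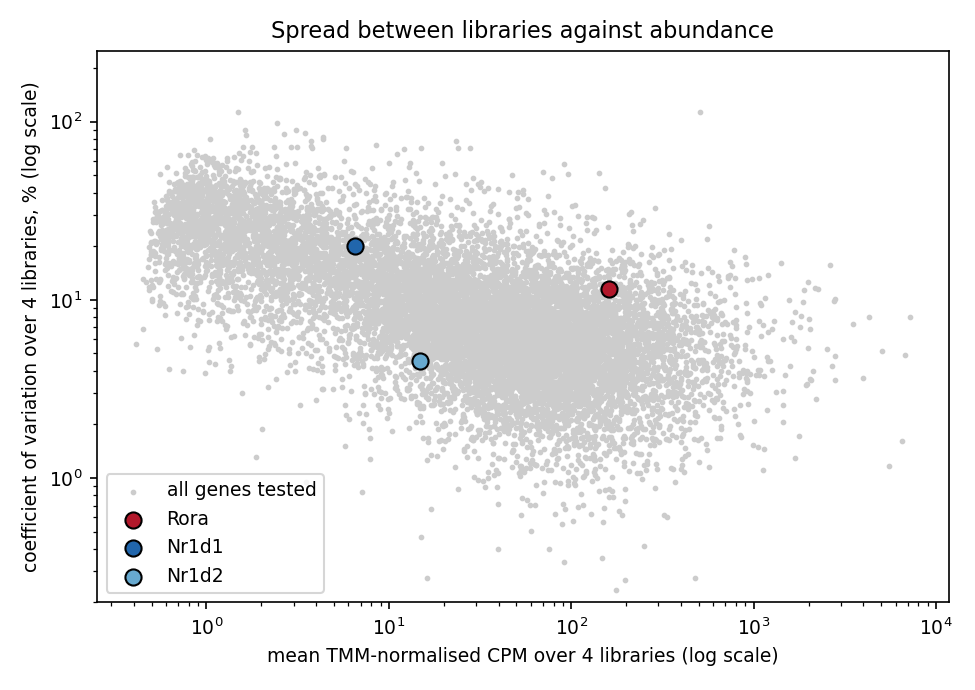
Coefficient of variation of normalised CPM over the 4 libraries against mean abundance for the 12156 genes tested, with Rora, Nr1d1 and Nr1d2 marked. Nr1d1 at 20% and Rora at 11.5% lie above the median of 7.91%, and Nr1d2 at 4.52% lies below it.

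By root mean square distance of log2 CPM deviations from the gene mean over the 4 libraries, with 11068 protein-coding genes compared, the nearest genes to Rora were Aktip, Hdac8 and Il21r, at 0.010, 0.012 and 0.012. Il21r, the interleukin 21 receptor gene, had 193, 186, 165 and 219 normalised CPM in replicates 1 to 4. Rora had 164, 157, 138 and 182 on the same scale. Such likeness was common, since 14.7% of the genes compared lay within 0.1 of Rora and 46.2% within 0.1 of Nr1d2, whose nearest gene was Cd247, the T-cell receptor zeta chain gene, at 0.002. Nr1d1 had fewer neighbours, with 1.93% within 0.1, and the nearest were Zc3h12b, Slc17a5 and Zbed5, at 0.020, 0.022 and 0.023. Its own deviations were larger, at 0.37 in replicate 3 and -0.29 in replicate 4. On 76 counts in replicate 3 its counting interval ran from 6.83 to 10.8 TPM, and the part of counting error in these distances was not tested.

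The genes around these receptors were then examined in 11 lists of 77 genes, of which 65 were detected, here meaning 1 TPM or more in each library. Of all 21764 protein-coding genes 47.6% were detected in this sense, which is also the background for the lists below. Of the 69 that passed the low-count filter, 0 were called more variable than the trend. An unadjusted p under 0.05 in the edgeR quasi-dispersion test was found for 7 of the 69, a larger share than the 596 of all 12156 genes. The median coefficient of variation of the 69 was 6.37%, beside 7.91% for all genes tested.

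All 4 clock activator genes were detected in every library. Arntl, a target shared by ROR and REV-ERB proteins, had 11.4, 11.1, 11 and 11.5 TPM in replicates 1 to 4, while Clock, the gene of its partner, averaged 8.07 ± 0.737 TPM (SD, n = 4). Arntl thus kept nearly the same level in the libraries where Rora and Nr1d1 differed most. Of the 8 clock repressor genes 6 were detected, led by Bhlhe40 at 746 ± 104 TPM and the cryptochrome gene Cry1 at 68.1 ± 1.06 TPM. Among the PAR bZIP genes and their competitor Nfil3, 2 of 4 were detected: Nfil3, a REV-ERB target, at 50.6, 53.3, 44 and 76.1 TPM in replicates 1 to 4, and Tef at 4.29 ± 0.797 TPM. Nfil3 was highest in replicate 4 and lowest in replicate 3, the order of Rora and the reverse of that of Nr1d1. Dbp, a clock output gene, had 1.31, 1.48, 0.938 and 2.1 TPM in the same order of libraries.

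This order was frequent among the clock genes, but not among them alone. Of the 20 other nuclear receptor genes past the low-count filter, 9 had it and 1 had the reverse, by normalised CPM. Of the 14 in the activator, repressor and PAR bZIP lists that passed the filter, 9 had their highest normalised CPM in replicate 4 and their lowest in replicate 3, as had 20.5% of all 12156 genes tested, and 1, Cry1, had the reverse, as had 20.6% of all genes. Ordered by TPM, which was added after seeing the data, 10 of the 14 and 22.8% of all genes had the first order, and 0 of the 14 and 17.4% of all genes the reverse. Rora was in the larger class, Nr1d1 in the reverse one and Nr1d2 in neither, with replicate 3 highest and replicate 2 lowest. The median coefficient of variation of the 14 was 17.2%, beside 7.91% for all genes tested. Replicate 3 had 9382661 counts, the fewest, against 23673174 to 34542693 in the other libraries, and the part of depth in this order was not tested.

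**Figure D4:**
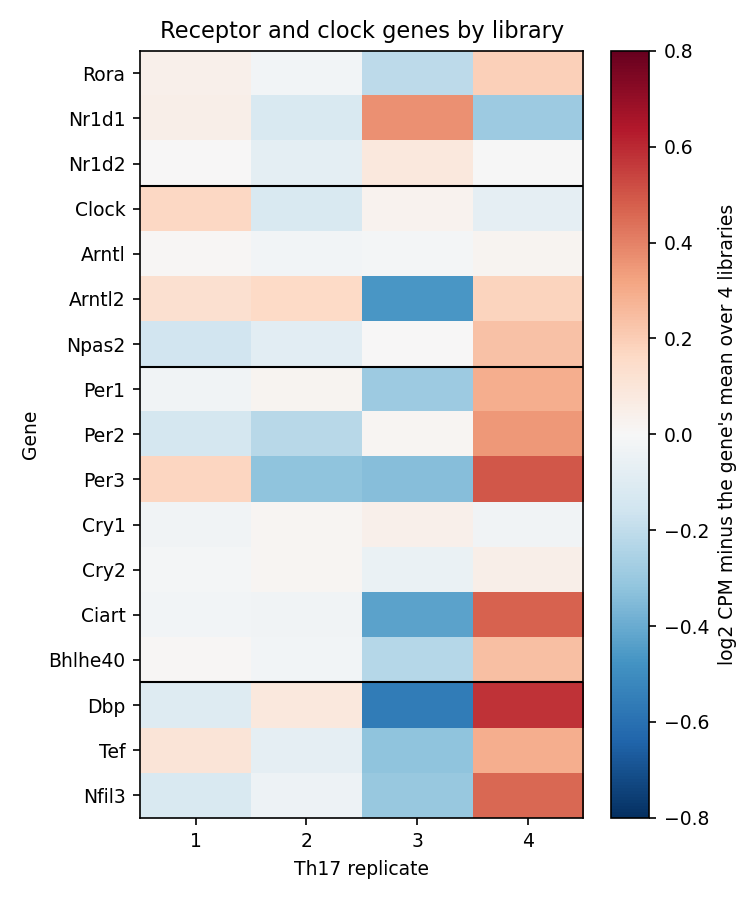
Difference of log2 CPM from each gene's mean (colour scale) in replicates 1 to 4, for 3 receptor genes and the clock genes that passed the filter. Rora and Nfil3 are highest in replicate 4 and lowest in replicate 3, Nr1d1 is the reverse, and Arntl and Nr1d2 stay near 0.

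The machinery through which the receptors act was expressed. All 6 corepressor genes were detected, with a median of 77.4 TPM, and Ncor1, whose product docks on REV-ERB proteins, had 82.9, 82.2, 94 and 81.1 TPM in replicates 1 to 4. Hdac3, the deacetylase of that complex, averaged 82.5 ± 4.66 TPM (SD, n = 4). Corepressor transcripts were thus several-fold above those of the REV-ERB genes per base of exon. Of 9 coactivator genes 8 were detected, led by Ncoa3 at 74.9 ± 2.43 TPM and the Mediator gene Med1 at 46.2 ± 0.922 TPM, while Ppargc1a, a coactivator of RORα in metabolic tissue, held 0 counts. Among the kinases and ubiquitin ligases that control the turnover of clock proteins and REV-ERBα, 7 of 8 were detected, with Csnk1d at 126 ± 2.29 TPM and the ligase gene Huwe1 at 87.7 ± 3.66 TPM.

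Genes of ligand supply divided by pathway. All 12 sterol synthesis genes, whose products include ROR ligands, were detected with a median of 76.5 TPM, led by Cyp51 at 311 ± 16.2 TPM (SD, n = 4). None of the 5 enzymes that oxidise or sulfate sterols reached 1 TPM in every library: the highest were the sulfotransferase gene Sult2b1 at 0.988 ± 0.0822 TPM and Ch25h with 14 counts over all libraries, and Cyp7b1 held 0 counts. Of 9 heme synthesis genes 8 were detected, with Cpox at 346 ± 43.4 TPM and Alad at 52.5 ± 3.17 TPM, and the erythroid gene Alas2 held 0 counts. All 5 heme turnover genes were detected, with the heme oxygenase gene Hmox2 at 105 ± 6.17 TPM and the biliverdin reductase gene Blvra at 44.4 ± 1.29 TPM.

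All 7 Th17 targets of ROR proteins were detected in every library, with a median of 174 TPM. Il17f, with the highest level of the 7, had 12387, 11336, 12330 and 10550 TPM in replicates 1 to 4. Il17a, the gene of the cytokine that names the lineage, had 8361, 7734, 8312 and 6741 TPM in replicates 1 to 4, lowest in replicate 4, where Rora was highest. Of the 7, 4 had the order of Nr1d1, highest in replicate 3 and lowest in replicate 4, by normalised CPM, as had 20.6% of all genes tested, and 0 had the order of Rora, as had 20.5% of all genes. Ordered by TPM, 2 of the 7 had the order of Nr1d1, beside 17.4% of all genes, and 0 that of Rora, beside 22.8%, since Il17a and Il17f had slightly more TPM in replicate 1 than in replicate 3.

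**Figure D5:**
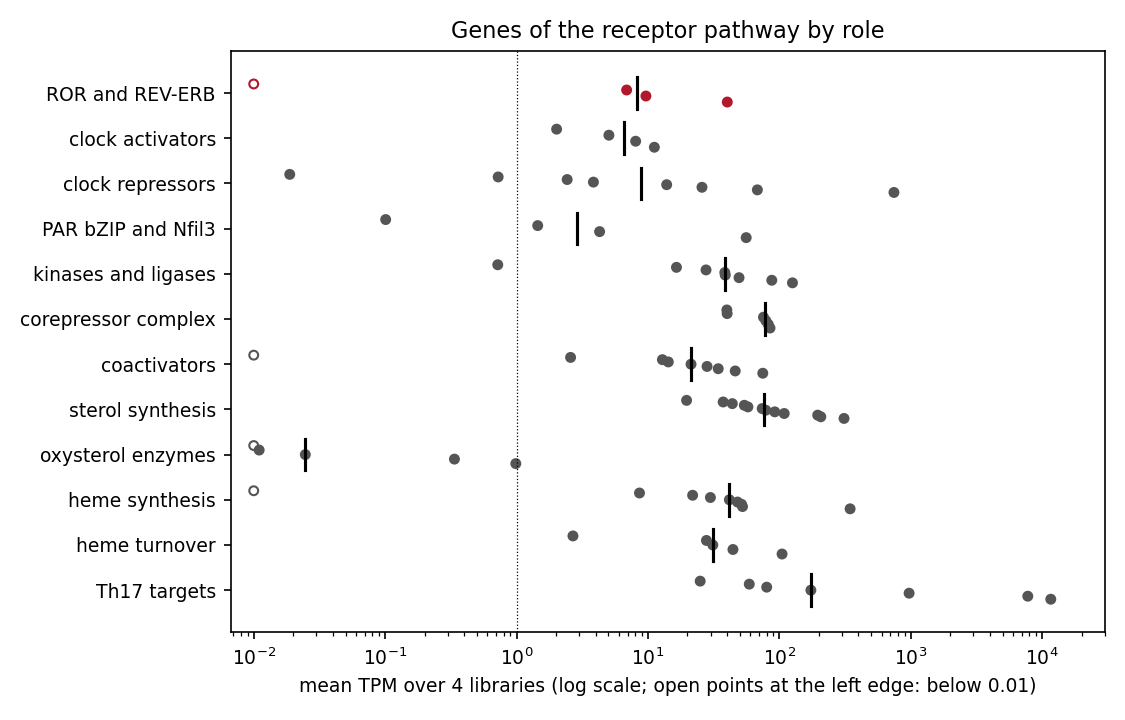
Mean TPM of each gene in the 11 lists of clock genes, cofactors, ligand enzymes and Th17 targets on a log axis, below the receptor genes (top row), with list medians as bars, 1 TPM dotted and open points for levels below 0.01 TPM. The sterol synthesis genes have a median of 76.5 TPM, and none of the oxysterol enzymes reaches 1 TPM in every library.

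The 4 libraries held between 9382661 and 34542693 counts, a 3.68-fold range, and a count was seen for 16009 to 18778 genes in each. All 7 marker genes of CD4 T and Th17 cells were detected in each library, with a summed level of 19655 to 22995 TPM. Most of this sum came from Il17a and Il17f, which are also among the Th17 targets above. The other markers, Cd3d, Cd3e, Cd3g, Cd4 and Trac, averaged 310, 125, 141, 564 and 1041 TPM. Rora is also expressed by group 2 innate lymphoid cells, whose 5 markers summed to 6.37 to 9.44 TPM, with 3 of 5 at 1 TPM or more in every library (Gata3, Areg and Il13) and Il5 at 1 count in all. For T cells of the gamma-delta and innate-like kinds the sum was 0.363 to 1.46 TPM over 4 markers, with Zbtb16 at 0 counts. Markers of B cells (0.241 to 0.686 TPM over 5 genes, Ms4a1 at 0 counts), myeloid cells (1.03 to 2.7 TPM over 5) and natural killer cells (0 to 0.138 TPM over 3, Ncr1 and Klrb1c at 0 counts) were low. Cd8a held 4 counts, while Cd8b1 averaged 13.4 TPM. The part of such cells in the levels of Rora, Nr1d1 and Nr1d2 was not tested.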

How the data were processed

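RNA was measured in 4 libraries of Th17 cells. The authors deposited raw gene-level counts of read pairs, whole numbers made with featureCounts 1.4.6-p4 on the exons of GENCODE mouse release 13, per the file headers. Per the file headers, pairs were counted on the reverse strand (option 2), both mates had to align, and reads that map to several places or overlap several genes were left out. The build is mm10 per the labels, and the header's input names point to STAR, with no version given in the sources used here. The assay label reads total RNA-seq, but the linked protocol is titled for poly(A) RNA.

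Symbols came from GENCODE release 21, where 50376 of 50600 identifiers matched after dropping versions, and the other 224 held 0.0104% of the counts. TPM were computed here from these counts and the exonic lengths in the deposited files. Intervals are exact Poisson (95%), and a pair difference is the mean over libraries of the difference of log2(TPM + 1). The spread was fitted with edgeR 4.0.16 (TMM, filterByExpr, intercept alone, R 4.3.3) on all 12156 genes past the filter. Each gene's quasi-dispersion was set against its abundance trend by an F test (upper tail, Benjamini-Hochberg). The estimated common biological coefficient of variation was 9.13%. The method was tested on simulated counts. The test against counting error was added after seeing the data.

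The members and the gene lists were chosen with earlier results of these data known. The text names the 4 receptors, their neighbours among nuclear receptors by mean TPM, the 3 genes nearest to each receptor, and the 2 highest members and members with 0 counts of each list, of which 1 is not reported here. It also names Thra, whose gene lies against Nr1d1, and Nfil3, Arntl, Clock and Dbp as textbook partners of the receptors in the clock. Per1, Ciart and other list members named outside these rules were chosen after their values were seen. Alternatives covered scaling, length, pseudocount, filter, tool and each replicate left out.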

Additional observations from a re-analysis of the deposited data

Results flagged for a closer look

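In 45 sets of 4 values, 1 per gene or gene pair considered, 3 had a single library farther from the rest than Dixon's 95% critical value allows, and chance flags about 1 set in 20. The clock activator gene Arntl2 had 1.42 TPM in replicate 3 against 2.18, 2.21 and 2.27 TPM in replicates 1, 2 and 4. The corepressor gene Ncor1 had 94 TPM in replicate 3 against 81.1 to 82.9 TPM in the other libraries. Thra, which overlaps Nr1d1 on the opposite strand, had 9.72 TPM in replicate 4 against 7.53 to 7.75 TPM in the others. Rora, Nr1d1 and Nr1d2 themselves, and the differences between them, had no such library.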

How the results depend on the processing

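Of the alternative values computed, 118 kept their direction and their side of the threshold or their size, 11 moved and 0 reversed. This tally does not measure how firm the results are, since some values could not change. The level of Rorb was 0 under any scaling. The exact permutation p of the pairs could not cross the threshold with so few libraries. Values counted as kept could also differ in size. Nr1d2 over Nr1d1 had a log2 difference of 0.45, and of 2.93 with the shortest protein-coding transcript as the length. The ratio to the trend of Nr1d1 was 1.87, and 0.917 without replicate 3. In CPM, which leaves out gene length, Rora stood at 160 and Nr1d2 at 14.7. With the longest protein-coding transcript as the length, chosen after seeing the data, they stood at 48.3 and 10.4 TPM, and with the shortest at 203 and 65.5 TPM. Over protein-coding genes alone Nr1d2 had 10.1 TPM. The number of genes called more variable than the trend was 1, and it was 5 with a mean count of at least 50, 126 with no filter, 111 as DESeq2 dispersion outliers, and 1 to 20 with each replicate left out in turn. Leaving out each replicate gave 38.3 to 42.2 TPM for Rora, 6.3 to 7.32 for Nr1d1 and 9.51 to 9.83 for Nr1d2. The log2 differences were then 5.29 to 5.43 (Rora over Rorb), 2.24 to 2.57 (Rora over Nr1d1), 1.88 to 2.04 (Rora over Nr1d2), 0.36 to 0.53 (Nr1d2 over Nr1d1), 3.39 to 3.44 (Nr1d2 over Rorb) and 2.86 to 3.05 (Nr1d1 over Rorb), and the smallest exact permutation p that 3 libraries allow is 0.25. The ratio to the trend was 3.09 to 5.6 for Rora, 0.917 to 2.23 for Nr1d1 and 0.0841 to 0.318 for Nr1d2 (edgeR, adjusted p from 0.968 to 0.999), and 65 to 66 of the 77 pathway genes were detected. No paired comparison of groups was possible because there is 1 group, and the pair differences compared genes within each library. The cause of the moved values was not tested beyond the length and filter each alternative changes. Depth limits Rorb and Nr1d1 most, with 0 and 76 counts in replicate 3.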

Other observations

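The E-box CACGTG, to which the CLOCK and BMAL1 dimer binds, occurred in 7.15% of the 32851 promoter windows. It was found in 4 of the 6 clock repressor genes in the promoter table (Per1, Cry1, Ciart and Bhlhe41) and in Tef, and in none of the windows of Rora, Rorb, Nr1d1 and Nr1d2. The match was not limited to clock genes: 3 of 7 heme synthesis, 3 of 9 sterol synthesis and 5 of 38 other nuclear receptor genes had it. No gene of the remaining lists had it. The percentage is of windows, whereas these counts are of genes, some with several windows. Per1 had 25.2, 25.9, 20.7 and 31.5 TPM in replicates 1 to 4 and Ciart had 13.4, 13.2, 9.93 and 18.9 TPM, both highest in replicate 4 and lowest in replicate 3. Cry1 did not share that order, at 67.2, 68.9, 69.1 and 67.2 TPM, and Bhlhe41 held 4 counts over all libraries. Tef had 4.56, 4.02, 3.35 and 5.22 TPM.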
